A study of Mus musculus with 16 samples.

Results

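Microglia from mice that carry an amyloid transgene and lack microglial p38α were set against microglia of normal mice: 4 AD p38KO libraries and 4 WT p38+/+ libraries, 8 of the 16 in the series. Libraries were taken by their labels, and genes with at least 1 CPM (reads of a gene scaled to a fixed library total) in at least 4 of these 8 libraries were kept, which gave 12911 of the 20267 genes in the deposited table. AD p38KO mice were APPswe/PS1dE9+/-, p38fl/fl and Cx3cr1-creERT2+/-. WT p38+/+ mice were APPswe/PS1dE9-/-, p38fl/fl and Cx3cr1-creERT2-/-. All mice of the series, controls included, were p38fl/fl on a C57BL/6J background and were fed tamoxifen from 5 months of age for 4 weeks, and microglia were isolated at about 11 months. Each library is 1 mouse, and by the labels mouse 1 of each group and WT p38KO 2 were female and the others male, with about 10000 live cells sorted for CD11b and P2ry12 from the left hemisphere. The other 2 groups, 4 mice each, carried 1 of the 2 changes: WT p38KO (APPswe/PS1dE9-/-, Cx3cr1-creERT2+/-) and AD p38+/+ (APPswe/PS1dE9+/-, Cx3cr1-creERT2-/-). The comparison therefore differs in the transgene, in the floxed kinase and in the Cre allele together, and the Cre gene stands in place of 1 Cx3cr1 copy.

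Microglia are the resident macrophages of the brain. Around amyloid plaques they take on a disease-associated (DAM) program, in which cystatin F, lipid-handling genes, phagocytic receptors and growth factors rise while some homeostatic genes fall. The kinase p38α, encoded by Mapk14, is activated by stress and by inflammatory receptors and acts through downstream kinases and RNA-binding proteins on the production of cytokines. Interferon-stimulated genes are a second program of aged and plaque-exposed microglia, switched on by STAT and IRF factors. Replication-dependent histone genes supply new histones in S phase, and their mRNAs end in a stem-loop instead of a poly(A) tail.

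The libraries held microglia by their defining markers. Across the 8 libraries Tmem119 lay at 6052 to 7293 CPM and P2ry12 at 6948 to 10099.8 CPM. The deleted kinase was checked by the transcript that encodes isoform 1 (ENSMUST00000062694), which was 66.0, 82.6, 78.7 and 47.1 CPM in WT p38+/+ mice 1 to 4 and 0.0931, 0.0574, 0.112 and 0.248 CPM in AD p38KO mice 1 to 4, the latter worth under 4 reads a library. Another Mapk14 transcript (ENSMUST00000114752) was listed higher in the knockouts, at 74.5, 97.2, 82.2 and 98.7 CPM against 134.9, 146.6, 154.2 and 138.1 CPM (88.2 ± 11.8 against 143 ± 8.70, mean ± SD, n = 4 each; two-sided exact permutation test, p = 0.0286, the smallest possible). Transcripts of 1 gene can share reads, so a rise of this one and reads moved to it from isoform 1 cannot be told apart. Mapk14 summed over its transcripts was 166, 210.2, 183 and 162 CPM against 142, 157, 166 and 145 CPM (log2 difference -0.24 ± 0.10, adjusted p = 0.308, limma). Each CPM stood for 12.6 to 16.4 reads in the 8 libraries. In AD p38KO 16045, 16855, 16680 and 15487 genes were detected, less than in any of the other 12 libraries of the series, whose lowest was 16992 (exact permutation test against WT p38+/+, two-sided, p = 0.0286, the smallest that 4 against 4 can give). AD p38KO mice 4 and 1 correlated least with the other 15 libraries, with a mean r of 0.901 and 0.930 against at least 0.947 in the remaining 14. AD p38KO 4 also held 467 CPM of red blood cell markers, against at most 3.99 CPM in the other 7 of the 8 compared. Outside the 8, WT p38KO 3 held 364 CPM and WT p38KO 4 held 40.6 CPM of them. WT p38+/+ 1 had the highest Hspa8 of the 8, at 1374 CPM against at most 732 CPM. The part of AD p38KO 1 and 4 and WT p38+/+ 1 in the results below was not tested beyond leaving them out.

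A gene is called changed where limma's adjusted p (Benjamini-Hochberg, over all 12911 genes, from a fit of log2(CPM + 0.5) in all 16 libraries) was under 0.05. Differences are AD p38KO minus WT p38+/+ on that log2 scale with their SE, and values per mouse follow the order 1 to 4. Of the 12911 genes, 0.836% were called, 73 higher (0.565%) and 35 lower (0.271%). The median difference of all genes was -0.02. The calls reached over 2 on the log2 scale for 28 of the higher and 11 of the lower genes, and the smallest called difference was 0.34, for Grn. The 2 groups of 4 overlapped in 4 of the called genes (Adssl1, Gm33858, Herc3 and Tbl1xr1) and in no other, and 5.2% of all genes tested lay apart without overlap, 2.98% higher and 2.22% lower. With each of the 8 libraries left out in turn 47 of the called genes were called every time (34 higher and 13 lower). Without AD p38KO 1 and 4 all called genes kept their sign, and 36 (24 higher and 12 lower) were still called. Because a gene needed 1 CPM in 4 libraries, a few entered through 1 group only. Of the genes called higher, 6 were under 1 CPM in every WT p38+/+ library. Of those called lower, 4 were under 1 CPM in every AD p38KO library. Leave-out fits kept the same 12911 genes without filtering again, so a call kept there adds no support for such genes.

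**Figure D1:**
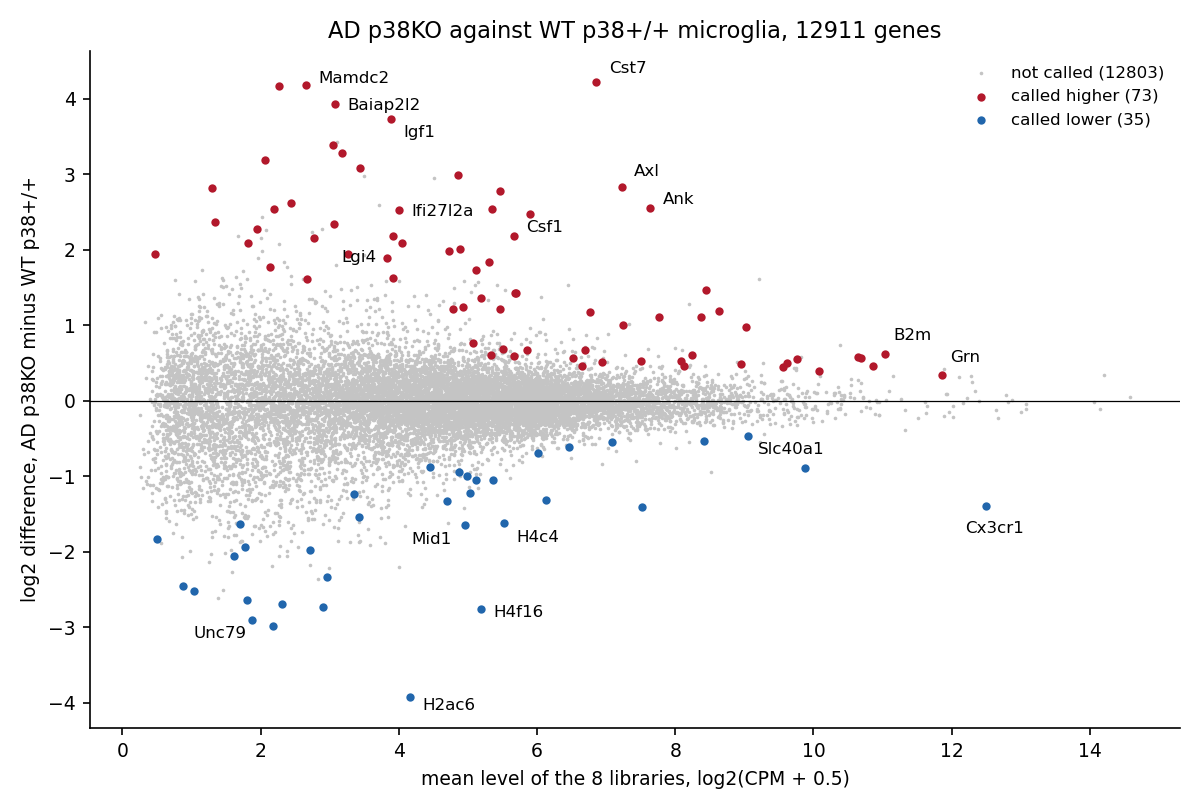
Log2 difference between AD p38KO and WT p38+/+ microglia against mean level, log2(CPM + 0.5), for 12911 genes; grey points were not called, red points (73) were called higher and blue points (35) lower by limma. Cst7 (4.23) and H2ac6 (-3.93) lie at the extremes, while Cx3cr1 (-1.40) is the called gene farthest to the right.

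The called genes fell unevenly over the gene lists. Of the 42 tested DAM genes, 22 were called higher and 0 lower, with a median difference of 1.14 against -0.02 for all genes. Over all genes 0.565% were called higher and 0.271% lower. Baiap2l2, Mamdc2 and Fabp5, which are among the 22, were under 1 CPM in every WT p38+/+ library. They passed the filter through AD p38KO alone, so they could count only as higher, here and among the DAM genes without overlap below. In bulk RNA of sorted cells, fewer cells of a type and less RNA per cell cannot be told apart. Of the 52 tested interferon-stimulated genes, 6 were called higher, 45 had a positive difference and the median was 0.72. Over all genes 47.0% had a positive difference. Of the 20 tested histone genes, 6 were called lower, 18 had a negative difference and the median was -1.32. Of the 36 tested homeostatic genes, 33 were not called and the median was -0.03. Without overlap between the groups were 30 DAM genes, 17 interferon-stimulated genes and 5 MHC class I genes, all higher, where 2.98% of all genes lay higher without overlap. Lower without overlap were 9 histone genes and 6 homeostatic genes, where 2.22% of all genes lay lower; 3 homeostatic genes were higher without overlap. The DAM count was 14 to 24 with 1 library left out, lowest without AD p38KO 1, and 12 without AD p38KO 1 and 4. The interferon count was 2 to 7 and then 3, with 2 without WT p38+/+ 4 or AD p38KO 1 and 3 without WT p38+/+ 1. The histone count was 4 to 8 and then 3. Without WT p38+/+ 1, WT p38+/+ 3 or AD p38KO 1, 1 lysosomal gene and no Alzheimer risk-locus gene was called. Without WT p38+/+ 1, 3 or 4 or AD p38KO 1, 1 chemokine ligand was called.

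**Figure D2:**
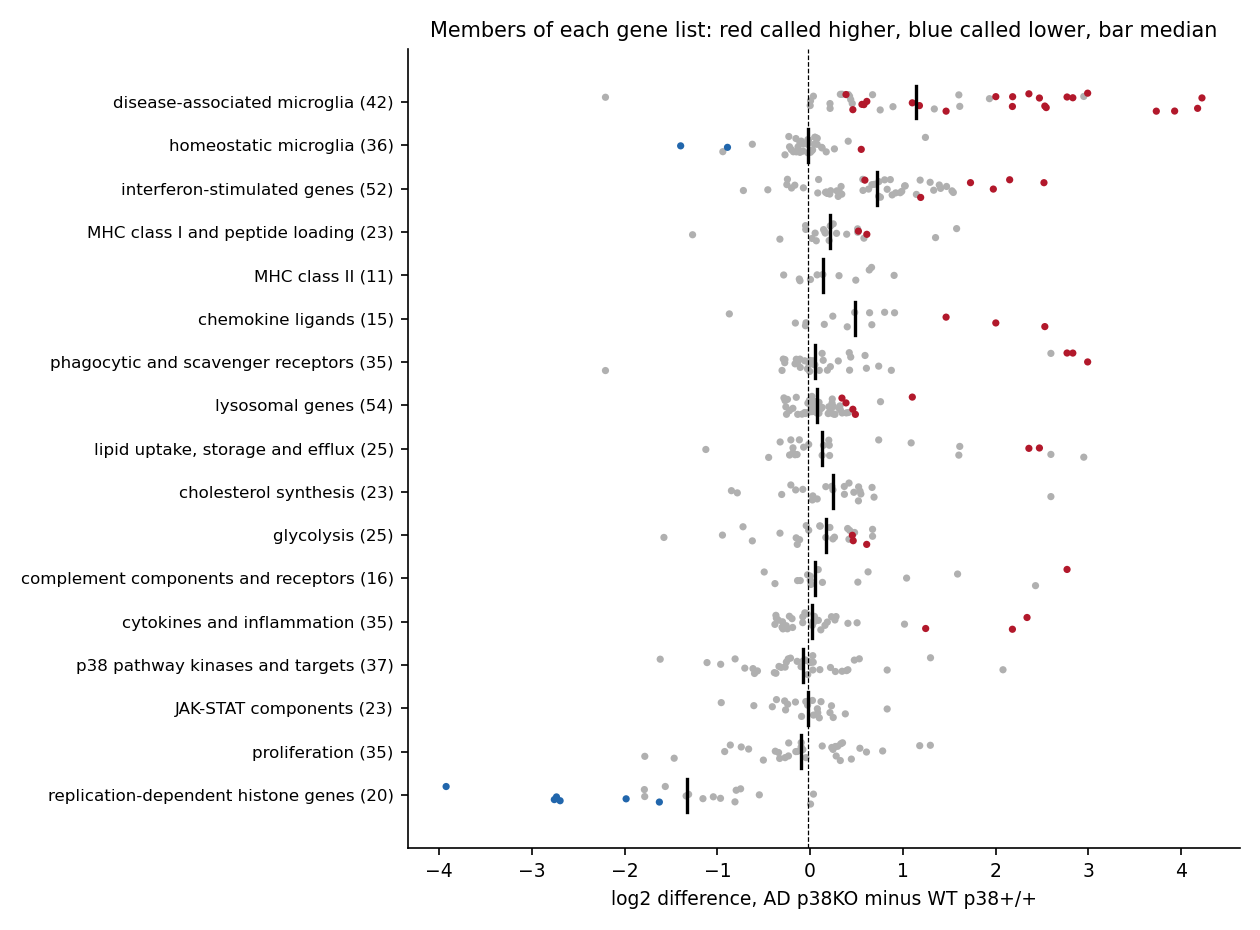
Log2 difference, AD p38KO minus WT p38+/+, of every tested member of 17 gene lists, with the number of members in brackets; red points were called higher, blue points lower, black bars are list medians and the dashed line is the median of all genes (-0.02). The DAM median stands at 1.14 and the histone median at -1.32.

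Cst7 encodes cystatin F, an inhibitor of lysosomal cysteine proteases. It was 7.61, 12.4, 11.99 and 12.6 CPM in WT p38+/+ against 289.8, 246, 158 and 185 CPM in AD p38KO mice, a difference of 4.23 ± 0.30, adjusted p = 3.02e-07. The lowest AD p38KO mouse stood far above the highest WT p38+/+ mouse. Igf1, a growth factor that microglia release, was 0.217, 2.68, 1.52 and 2.44 CPM against 23.3, 35.4, 36.1 and 13.1 CPM (3.73 ± 0.58, adjusted p = 0.00347). Csf1, the ligand of the receptor on which microglia depend, was 22.97, 25.9, 11.5 and 13.7 CPM against 95.8, 85.1, 78.3 and 68.7 CPM (2.18 ± 0.31, adjusted p = 0.00182). Lpl, which frees fatty acids from lipoproteins, was 8.19, 45.9, 13.4 and 16.002 CPM against 112.03, 114.8, 80.1 and 83.4 CPM (2.47 ± 0.43, adjusted p = 0.00765), so that in each of these genes the lowest AD p38KO mouse stood above the highest WT p38+/+ mouse.

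Of 15 chemokine ligands tested, 3 were called higher and none lower, where 0.565% of all genes were called higher. Ccl6 was 196, 136, 173 and 244 CPM in WT p38+/+ against 551, 568, 482 and 439 CPM in AD p38KO mice (1.47 ± 0.18, adjusted p = 3.71e-04). Ccl3 was 6.38, 21.5, 7.59 and 11.1 CPM against 129, 51.8, 45.8 and 50.4 CPM (2.53 ± 0.52, adjusted p = 0.0240), with AD p38KO 1 far above the other 3 AD p38KO mice. Ccl4, its neighbour on chromosome 11, was 8.41, 15.3, 11.4 and 9.70 CPM against 68.6, 47.4, 32.1 and 40.3 CPM (2.00 ± 0.40, adjusted p = 0.0205). The Ccl6 call held whichever library was left out. Ccl3 reached an adjusted p of 0.0922 without AD p38KO 1, and Ccl4 one of 0.0805 without AD p38KO 1. The other 12 ligands were not called, and Ccl9 lay at 83.6 ± 11.3 CPM in WT p38+/+ against 84.1 ± 25.7 CPM in AD p38KO mice (mean ± SD, n = 4 each).

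Mamdc2, an extracellular protein, was listed at 0 in all 4 WT p38+/+ libraries and was 25.5, 13.5, 3.49 and 4.13 CPM in AD p38KO mice, at least 51.2-fold higher when WT p38+/+ is set at 3 reads a library. Without AD p38KO 1, the highest of its group, that bound was 31.0-fold. Lox, which cross-links collagen and elastin, was 2.46, 2.07, 0 and 0.771 CPM against 25.2, 5.65, 17.9 and 14.5 CPM (3.29 ± 0.65, adjusted p = 0.0183). Mif, a cytokine-like protein, went from 17.6 ± 2.07 to 42.5 ± 4.45 CPM (mean ± SD, n = 4 each; 1.25 ± 0.17, adjusted p = 0.00151). Fam20c, the kinase of secreted phosphoproteins, rose by 1.36 ± 0.23 and Serpine2, a serine protease inhibitor from the homeostatic list, by 0.55 ± 0.11 on the log2 scale (adjusted p = 0.00762 and 0.0187). Lox was not called without WT p38+/+ 3, WT p38+/+ 4 or AD p38KO 1, with an adjusted p of up to 0.0745, and Serpine2 reached 0.0710 without AD p38KO 1.

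Receptors for debris and dying cells rose in part. Axl, a receptor tyrosine kinase that binds dying cells through Gas6, was 32.6, 62.8, 25.1 and 29.9 CPM against 315, 288, 265 and 174 CPM (2.83 ± 0.33, adjusted p = 2.53e-04). Clec7a (dectin-1, a β-glucan receptor) was 5.87, 5.60, 3.80 and 6.11 CPM against 102, 30.4, 38.3 and 35.8 CPM (2.99 ± 0.52, adjusted p = 0.00801). Itgax, the integrin chain CD11c, was 7.87, 17.2, 12.3 and 5.78 CPM against 78.4, 124, 57.2 and 44.9 CPM (2.77 ± 0.45, adjusted p = 0.00467). The groups stood apart in all 3, and Clec7a was spread widely within AD p38KO, with mouse 1 at 102 CPM and the other 3 at 30.4 to 38.3 CPM. These 3 were the only members called of 35 tested phagocytic and scavenger receptors, whose median difference was 0.05, where 0.565% of all genes were called higher.

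Several called membrane proteins belong to no receptor list. Ank, which carries ATP and pyrophosphate out of cells, was 63.6, 57.9, 50.6 and 59.5 CPM in WT p38+/+ against 357, 346, 344 and 313 CPM in AD p38KO mice (2.55 ± 0.23, adjusted p = 1.49e-05). Baiap2l2, which shapes membranes through an I-BAR domain, was 0.652, 0.365, 0.152 and 0.707 CPM against 25.4, 16.6, 12.8 and 6.70 CPM (3.93 ± 0.41, adjusted p = 7.23e-05). Tmem163, a zinc transporter of vesicles, was listed at 0 in 3 WT p38+/+ libraries and at 0.487 CPM in the other, and was 3.01, 2.55, 4.28 and 5.35 CPM in AD p38KO mice (2.81 ± 0.43, adjusted p = 0.00264). Dcstamp, which takes part in the fusion of osteoclast precursors, was listed at 0 in all 4 WT p38+/+ libraries and lay at 7.59, 11.3, 8.08 and 7.38 CPM in AD p38KO mice, at least 37.7-fold higher. All 4 calls held with any 1 of the 8 libraries left out. Baiap2l2, Tmem163 and Dcstamp were under 1 CPM in every WT p38+/+ library and passed the filter through AD p38KO alone. The filter was not applied again in those fits, so for these 3 genes they add no support.

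Among other surface genes, Cd63, a tetraspanin of late endosomes, was 146, 111.1, 150.3 and 145 CPM against 327, 288, 304 and 267 CPM (1.10 ± 0.17, adjusted p = 0.00341). Its processed copy Cd63-ps was also called (1.01 ± 0.18, adjusted p = 0.0101), and reads of the 2 cannot be told apart with certainty. Cd52 went from 65.6 ± 5.81 to 150.3 ± 25.0 CPM (1.18 ± 0.17, adjusted p = 0.00182) and Cd9, another tetraspanin, from 1346 ± 241 to 1964 ± 195 CPM (0.56 ± 0.11, adjusted p = 0.0178), each as mean ± SD of 4 mice. Pdcd1, the inhibitory receptor PD-1, was 3.70, 7.48, 2.28 and 12.9 CPM against 31.4, 27.9, 25.5 and 16.8 CPM (2.09 ± 0.44, adjusted p = 0.0286). Crlf2, a chain of the TSLP receptor, was 17.2, 18.3, 17.8 and 10.99 CPM against 46.4, 28.4, 40.6 and 36.3 CPM (1.22 ± 0.22, adjusted p = 0.00851). Pdcd1 was not called without WT p38+/+ 1 or 3 or AD p38KO 1 or 2, and its adjusted p then reached 0.0975.

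**Figure D3:**
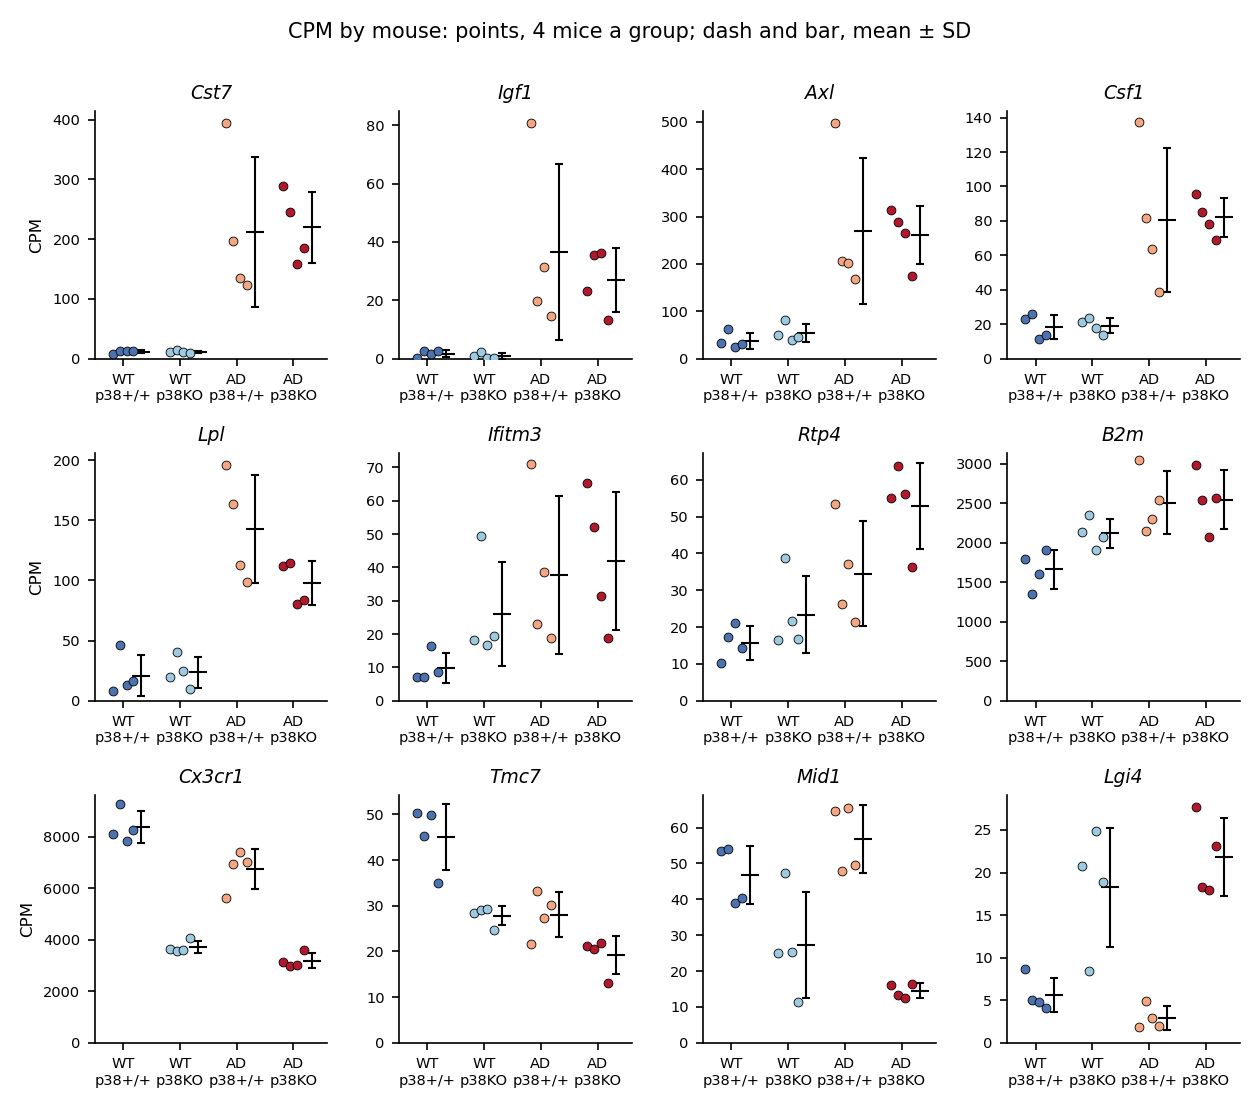
CPM of 12 genes in each mouse of the 4 groups (points), with the group mean and SD (dash and bar, cut at 0); each axis starts at 0. Cst7, Igf1, Axl, Csf1 and Lpl are high in both AD groups, Cx3cr1 and Mid1 have lower means in both p38KO groups, and Lgi4 has higher means in both p38KO groups (18.3 and 21.8 CPM) than in both p38+/+ groups (5.63 and 2.92 CPM).

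Single transcription factors were among the calls. Egr2, an early growth response factor, was 3.12, 4.08, 0.987 and 0.450 CPM against 22.7, 13.3, 16.6 and 21.2 CPM (3.08 ± 0.54, adjusted p = 0.00801). Bhlhe40, a repressor of lymphoid and myeloid cells, was 2.75, 2.74, 0 and 0.129 CPM against 15.8, 17.98, 14.1 and 8.46 CPM (3.39 ± 0.64, adjusted p = 0.0132). Egln3, a prolyl hydroxylase that marks hypoxia-inducible factor for decay and is itself induced by it, was 0.507, 1.10, 0.531 and 1.29 CPM against 6.62, 6.37, 10.6 and 5.75 CPM (2.54 ± 0.53, adjusted p = 0.0256). Hif1a itself went from 211 ± 32.6 to 336 ± 47.8 CPM, with an adjusted p of 0.0612 that missed the threshold. Egln3 lost its call without WT p38+/+ 1, 2 or 3 or AD p38KO 1 or 3 (adjusted p up to 0.0853).

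Of 25 glycolysis genes, 3 were called higher, none lower, and the median was 0.17, where 0.565% of all genes were called higher. None of the 25 was called without WT p38+/+ 1, 2 or 3 or AD p38KO 1 or 2, and 5 were called without AD p38KO 4. Pkm, which makes pyruvate, was 217, 254, 225 and 252 CPM against 447, 338, 393 and 285 CPM (0.61 ± 0.13, adjusted p = 0.0395). Aldoa rose by 0.46 ± 0.10 and Pgam1 by 0.47 ± 0.10 (adjusted p = 0.0427 and 0.0362). The adjusted p of Pkm reached 0.118 without AD p38KO 1, that of Aldoa 0.124 without WT p38+/+ 3 and that of Pgam1 0.110 without WT p38+/+ 3. Psat1, of serine synthesis, was 26.1, 16.5, 10.1 and 15.6 CPM against 81.2, 65.0, 57.2 and 39.7 CPM (1.83 ± 0.32, adjusted p = 0.00851). Cox6a2, the muscle-type subunit of cytochrome c oxidase, was 4.28, 4.56, 4.55 and 5.33 CPM against 40.8, 20.8, 18.9 and 17.4 CPM (2.18 ± 0.36, adjusted p = 0.00509). Both of these calls held with each library left out.

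Of 54 lysosomal genes tested, 5 were called higher and none lower, and the median was 0.08, where 0.565% of all genes were called higher. Grn, the precursor of lysosomal granulins, was 3091, 3357, 3175 and 3495 CPM against 4273, 3971, 4324 and 4069 CPM (0.34 ± 0.07, adjusted p = 0.0196). Ctsz, a cathepsin, went from 1565 ± 169 to 2151 ± 169.6 CPM, Gusb from 412 ± 46.5 to 577 ± 51.5 CPM and Cd68 from 936 ± 63.6 to 1223 ± 57.9 CPM (mean ± SD, n = 4 each; adjusted p = 0.0205, 0.0199 and 0.0445). Cd63 was the other called member, with the largest difference of the 5 (1.10). Ctsd lay at 16690.5 ± 2372 and 21174 ± 2631 CPM and Ctsb at 3273 ± 483 and 4343 ± 465 CPM, with adjusted p values of 0.129 and 0.0709. Outside the list, Atp6v0c, the ring subunit of the lysosomal proton pump, was 235, 207, 236 and 209 CPM against 319, 298, 330.1 and 325 CPM (0.52 ± 0.08, adjusted p = 0.00509), and its near-identical copy Atp6v0c-ps2, which may share its reads, was also called. With 1 library left out as few as 1 of the 5 list members was called, and without AD p38KO 1 and 4 also 1, Cd63.

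A few called genes handle iron, and no list of such genes was counted. Fth1, the ferritin heavy chain, was 1359, 987, 1253 and 1561 CPM in WT p38+/+ against 2141, 1996, 1768 and 1741 CPM in AD p38KO mice (0.58 ± 0.13, adjusted p = 0.0414). Ftl1, the light chain, was 734, 609, 609 and 645 CPM against 969, 959, 867 and 875 CPM (0.50 ± 0.10, adjusted p = 0.0216), and Ftl1-ps1, a copy that may share its reads, rose by 0.45 ± 0.10. Slc40a1, ferroportin, the iron exporter, was 627, 584, 630.4 and 607 CPM against 433, 447, 499.9 and 402 CPM (-0.46 ± 0.10, adjusted p = 0.0395). Its groups did not overlap, but it lost its call with any library but AD p38KO 3 left out, with an adjusted p of up to 0.104. Fth1 and Ftl1 each lost theirs in 5 of the 8 leave-out fits, and Fth1 reached 0.1197 without AD p38KO 1 and Ftl1 0.0826 without WT p38+/+ 3. Atox1, a copper chaperone, rose by 0.67 ± 0.13 (adjusted p = 0.0149).

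The calls that held in every leave-out fit also included the next 5 genes, which belong to no list. Anxa5, which binds phosphatidylserine, was 23.2, 24.2, 26.9 and 30.6 CPM against 68.0, 56.3, 66.6 and 54.7 CPM (1.21 ± 0.15, adjusted p = 6.63e-04). Capg, which caps actin filaments, was 22.4, 27.6, 30.2 and 29.2 CPM against 86.4, 75.4, 69.7 and 65.0 CPM (1.42 ± 0.21, adjusted p = 0.00182). Myo1e, a membrane-bound myosin, was 26.5, 37.6, 28.2 and 20.5 CPM against 77.6, 64.0, 83.6 and 74.6 CPM (1.42 ± 0.26, adjusted p = 0.0122). Actr3b, of the actin-branching Arp2/3 complex, was listed at 0 in WT p38+/+ 1 and 4, lay at 1.22 and 0.380 CPM in the other 2 and at 11.3, 6.53, 4.74 and 5.41 CPM in AD p38KO mice (3.18 ± 0.47, adjusted p = 0.00190). Gnas, which encodes the stimulatory G protein α subunit, was 292, 341, 372 and 396 CPM against 866, 681, 649 and 583 CPM (0.98 ± 0.16, adjusted p = 0.00541). All 5 calls held whichever library was left out.

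Rises of over 2 on the log2 scale also came from genes at low levels. Rab7b, a GTPase of late endosomes, was 1.30, 2.31, 0 and 1.16 CPM against 8.42, 12.2, 5.28 and 8.59 CPM (2.62 ± 0.47, adjusted p = 0.00927). Tnfsf8, the ligand of CD30, was 3.41, 1.95, 2.13 and 1.35 CPM against 15.3, 20.1, 8.08 and 10.4 CPM (2.34 ± 0.40, adjusted p = 0.00768). Fabp5, a fatty acid carrier, was 0.290, 0.243, 0.304 and 0.321 CPM against 3.94, 6.09, 2.92 and 2.19 CPM (2.36 ± 0.46, adjusted p = 0.0174). Fabp5 was at most 0.321 CPM in WT p38+/+, near the floor of 3 reads (0.183 to 0.228 CPM in these 4 libraries). Fabp5 lost its call without WT p38+/+ 2 or 3 or AD p38KO 1 or 2, with an adjusted p of up to 0.0549. Apoe, the lipid carrier best known as a DAM gene, was 263, 671, 223 and 141 CPM against 747, 1165, 658 and 857 CPM and was not called (1.61 ± 0.39, adjusted p = 0.0612), and WT p38+/+ 2 lay above AD p38KO 3.

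Interferon-stimulated genes leaned higher as a list. Ifi27l2a, a small membrane protein, was 3.12, 3.23, 5.62 and 3.02 CPM in WT p38+/+ against 53.2, 28.1, 16.4 and 11.7 CPM in AD p38KO mice (2.52 ± 0.46, adjusted p = 0.0114). Ifit1, which binds foreign capped RNA, was 2.17, 2.13, 2.20 and 0.964 CPM against 16.3, 13.1, 4.04 and 9.95 CPM (2.15 ± 0.41, adjusted p = 0.0149). Ifitm3, an antiviral membrane protein that also acts on γ-secretase, was 7.25, 7.06, 16.3 and 8.55 CPM against 65.3, 52.3, 31.5 and 18.7 CPM (1.98 ± 0.45, adjusted p = 0.0445). Both Ifitm3 and Ifi27l2a were spread widely within AD p38KO, where mouse 1 was the highest and mouse 4 the lowest. Rtp4, a receptor chaperone that also restrains RNA viruses, was 10.3, 17.4, 21.1 and 14.2 CPM against 55.0, 63.7, 56.3 and 36.3 CPM (1.73 ± 0.31, adjusted p = 0.00854). Lgals3bp rose by 1.19 ± 0.24 and Ifi27 by 0.59 ± 0.13 (adjusted p = 0.0184 and 0.0445). Of the other 46 tested members, Bst2 lay at 20.2 ± 5.52 and 41.2 ± 8.77 CPM (adjusted p = 0.0886). Rtp4 and Ifi27l2a stayed called with each library left out, while Ifitm3 reached 0.128 without AD p38KO 1, Ifit1 0.0616 without AD p38KO 1 and Ifi27 0.1201 without WT p38+/+ 1.

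MHC class I genes had smaller differences. Of 23 tested, 2 were called higher, none lower, and the median was 0.22, where 0.565% of all genes were called higher. B2m, the light chain shared by class I molecules, was 1800.2, 1352, 1601 and 1906 CPM against 2988, 2547, 2077 and 2564 CPM (0.61 ± 0.13, adjusted p = 0.0293). H2-T23, the non-classical molecule Qa-1, was 162, 137, 142 and 151 CPM against 204, 224, 209 and 213 CPM (0.52 ± 0.11, adjusted p = 0.0210). H2-D1 lay at 720.2 ± 54.2 and 1094 ± 230.1 CPM and H2-K1 at 392 ± 55.2 and 562 ± 105.8 CPM, without overlap in either, with adjusted p values of 0.0735 and 0.168. B2m lost its call in 5 and H2-T23 in 4 of the 8 fits with 1 library left out, and neither was called without WT p38+/+ 2, WT p38+/+ 3, AD p38KO 1 or AD p38KO 2. Without AD p38KO 1 and 4 the adjusted p was 0.265 for B2m and 0.117 for H2-T23.

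The 250 bases before the start of Ifit1, B2m and H2-T23 are shown because these were the genes called higher whose window held GAAA, any 2 bases and GAAA again, the core of the interferon-stimulated response element, here in capitals on either strand (RefSeq, GRCm38.p6, gene strand, 5′ to 3′, ending at the base before the start). They lie at chr19:34640639-34640888 (+), chr2:122147437-122147686 (+) and chr17:36032702-36032951 (-).
Ifit1: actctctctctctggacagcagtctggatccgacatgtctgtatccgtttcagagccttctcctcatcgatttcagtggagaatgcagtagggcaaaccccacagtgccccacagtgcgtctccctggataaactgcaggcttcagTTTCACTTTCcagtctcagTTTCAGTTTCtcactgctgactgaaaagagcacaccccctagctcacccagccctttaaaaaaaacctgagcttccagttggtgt
B2m: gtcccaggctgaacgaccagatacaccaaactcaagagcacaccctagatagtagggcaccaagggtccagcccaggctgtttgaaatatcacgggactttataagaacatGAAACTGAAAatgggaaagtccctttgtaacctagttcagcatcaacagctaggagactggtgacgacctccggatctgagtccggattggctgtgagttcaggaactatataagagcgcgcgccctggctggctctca
H2-T23: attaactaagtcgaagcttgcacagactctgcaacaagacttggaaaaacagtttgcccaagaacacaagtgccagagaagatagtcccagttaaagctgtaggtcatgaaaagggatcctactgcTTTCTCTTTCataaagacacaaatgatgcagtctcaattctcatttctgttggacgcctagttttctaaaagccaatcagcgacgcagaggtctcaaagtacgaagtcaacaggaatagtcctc
Of 27025 genes with a RefSeq window of 250 bases before and 50 after the start, 3.46% held the letters, and of the 40 tested interferon-stimulated genes that have a window 19 did (47.5%). Among the 51 genes called higher that have a window it was 3 (5.88%). A match is a description of the letters and says nothing on binding in these cells.

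The largest fall with respect to its error was in the fractalkine receptor. Cx3cr1 was 8130.1, 9296, 7842 and 8275 CPM in WT p38+/+ against 3126, 2978, 3042 and 3609 CPM in AD p38KO mice (-1.40 ± 0.09, adjusted p = 2.96e-07). Every AD p38KO mouse carried the Cre gene in place of 1 Cx3cr1 copy, and no WT p38+/+ mouse did. In the other 2 groups Cx3cr1 was 3720.3 ± 231 CPM in WT p38KO mice, and 6764 ± 778 CPM in AD p38+/+ mice, so both means with Cre lay under both without it. Gm33858, which overlaps the end of the Cx3cr1 span on the other strand, also fell (-1.06 ± 0.24, adjusted p = 0.0487), and since strand use in the counting is not given in the sources used here, its reads and those of Cx3cr1 cannot be told apart.

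Of the 20 replication-dependent histone genes tested, 6 were called lower, where 0.271% of all genes were. H2ac6 was 44.3, 31.0, 34.6 and 19.3 CPM in WT p38+/+ against 0.695, 4.77, 4.63 and 0.0699 CPM in AD p38KO mice (-3.93 ± 0.53, adjusted p = 0.00122). H4f16, a histone H4 copy on chromosome 6, was 95.9, 43.4, 63.4 and 46.1 CPM against 3.08, 16.6, 11.8 and 7.51 CPM (-2.76 ± 0.40, adjusted p = 0.00182). H4c4, in the large cluster of chromosome 13, was 79.9, 54.5, 95.6 and 45.5 CPM against 16.8, 26.0, 33.4 and 13.4 CPM (-1.63 ± 0.29, adjusted p = 0.0100). In each of these the highest AD p38KO mouse lay under the lowest WT p38+/+ mouse, by a wide margin for H2ac6 and H4f16 and a narrower one for H4c4. H4c14 (-2.70 ± 0.46, adjusted p = 0.00718), H4c9 (-2.74 ± 0.52, adjusted p = 0.0150) and H3c6 (-1.98 ± 0.43, adjusted p = 0.0362) were the other called members, and Gm20628, which lies beside H4c14 on chromosome 3, fell by 2.64 ± 0.40 (adjusted p = 0.00264). The H2ac6 difference was -3.30 without AD p38KO 4 and -2.60 without AD p38KO 1 and 4, its lowest mice, and those of H4f16 and H4c9 were both -2.04 without those 2 mice. H4c9 lost its call in 2 and H3c6 in 6 of the 8 leave-out fits, with an adjusted p of up to 0.0684 and 0.110. Copies of 1 histone type are near-identical, so reads may have been shared between them. Of the 60 listed histone genes, 46 were in the table and 20 passed the filter.

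**Figure D4:**
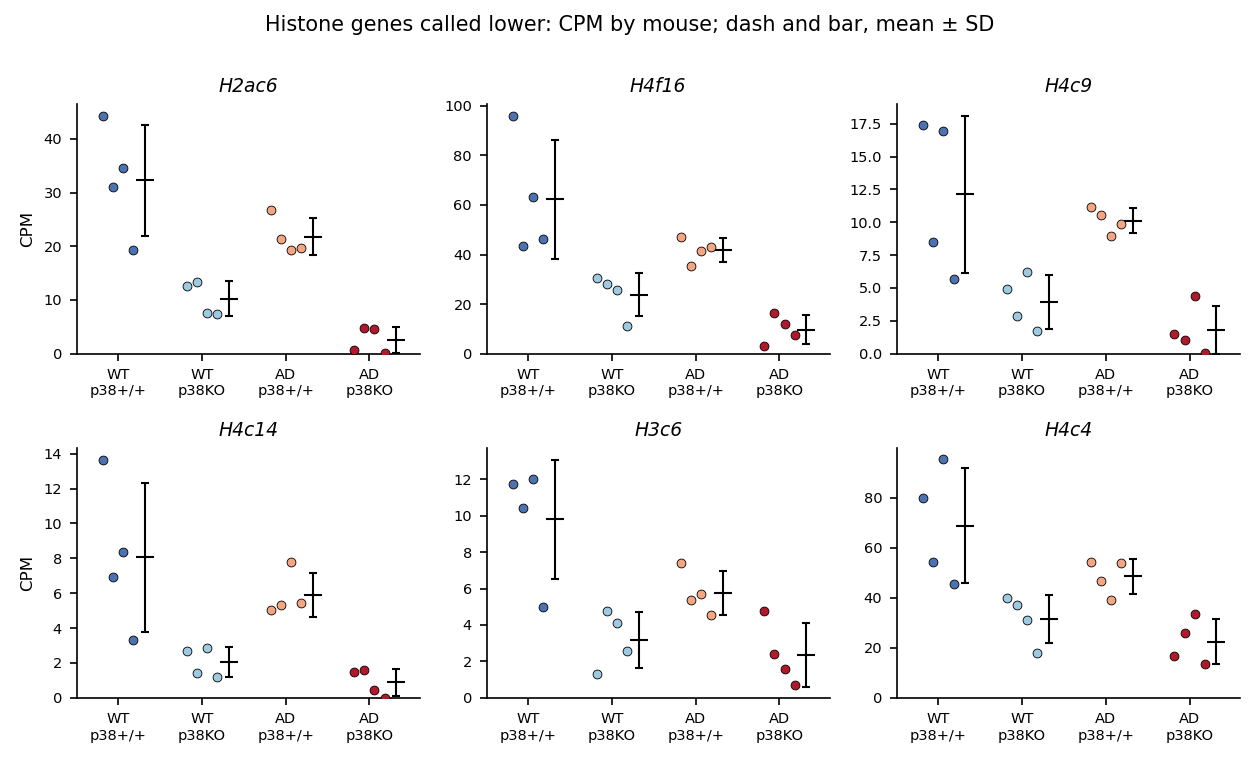
CPM of the 6 called histone genes in each mouse of the 4 groups (points), with the group mean and SD (dash and bar, cut at 0). AD p38KO mice lie under all 4 WT p38+/+ mice in each panel, and WT p38KO means lie between the means of those 2 groups.

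The 14 histone genes without a call included H1f4, at 70.8 ± 30.2 and 38.3 ± 9.71 CPM (adjusted p = 0.232), and H2bc4, at 13.5 ± 5.12 and 13.6 ± 5.77 CPM. Beside them, none of the 35 tested proliferation genes was called, which is near the share of 0.836% over all genes. Of the 35, 15 had a positive and 20 a negative difference, and their median was -0.09. Mki67, a marker of cycling cells, lay at 2.60 ± 1.78 and 1.47 ± 1.503 CPM, and Pcna, the sliding clamp of DNA polymerase, at 37.6 ± 8.65 and 47.0 ± 8.90 CPM. In AD p38+/+ mice H2ac6 was 21.8 ± 3.43 CPM and in WT p38KO mice 10.3 ± 3.23 CPM (mean ± SD, n = 4 each). AD p38KO libraries also had the fewest genes detected (15487 to 16855), while WT p38KO libraries, whose H2ac6 mean was under that of WT p38+/+ too, had 17449 to 17674, and the part of this in the histone calls was not tested.

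The windows of H2ac6, H3c6 and H4c4 are shown because these called histone genes have one and hold CCAAT, the box bound by NF-Y, in capitals on either strand (RefSeq, GRCm38.p6, gene strand, 5′ to 3′, 250 bases before the start). They lie at chr13:23683960-23684209 (-), chr13:23562386-23562635 (-) and chr13:23581318-23581567 (+).
H2ac6: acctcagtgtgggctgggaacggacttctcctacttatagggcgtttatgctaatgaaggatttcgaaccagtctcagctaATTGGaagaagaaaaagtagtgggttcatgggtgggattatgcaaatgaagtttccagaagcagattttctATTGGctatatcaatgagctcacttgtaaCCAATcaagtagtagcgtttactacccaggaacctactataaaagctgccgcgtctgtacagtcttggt
H3c6: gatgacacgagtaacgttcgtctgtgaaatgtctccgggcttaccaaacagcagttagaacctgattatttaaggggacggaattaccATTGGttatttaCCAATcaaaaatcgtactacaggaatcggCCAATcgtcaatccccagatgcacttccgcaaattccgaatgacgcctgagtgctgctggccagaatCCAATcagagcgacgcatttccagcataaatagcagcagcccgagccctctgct
H4c4: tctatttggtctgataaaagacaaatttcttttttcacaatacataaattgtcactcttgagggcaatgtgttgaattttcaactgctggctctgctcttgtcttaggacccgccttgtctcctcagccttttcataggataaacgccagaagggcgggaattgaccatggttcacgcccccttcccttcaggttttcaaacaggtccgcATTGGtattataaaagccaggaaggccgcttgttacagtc
CCAAT was in the window of 14 of the 16 tested histone genes that have one (87.5%), in 37.5% of all 27025 windows, and in 12 of the 23 genes called lower that have one (52.2%).

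Mid1 fell together with a pair of less-known genes on the X and Y chromosomes. Mid1, a ubiquitin ligase of microtubules, was 53.6, 54.2, 39.1 and 40.3 CPM in WT p38+/+ against 16.2, 13.2, 12.4 and 16.3 CPM in AD p38KO mice (-1.65 ± 0.29, adjusted p = 0.00801). G530011O06Rik, inside the span of Mid1 on the X chromosome (chrX:169975043-169978918, mm10), was 97.01, 73.7, 107.6 and 113.7 CPM against 26.0, 30.6, 46.4 and 60.04 CPM (-1.31 ± 0.30, adjusted p = 0.0468). Gm21860 on the Y chromosome (chrY:90752427-90755468) was 325, 251, 229.8 and 259 CPM against 77.7, 98.4, 112.9 and 110.5 CPM (-1.41 ± 0.31, adjusted p = 0.0398). Mouse 1 of both groups, labelled female, had Ddx3y, Eif2s3y and Kdm5d listed at 0, yet Gm21860 at 325 and 77.7 CPM, so its reads and those of a copy elsewhere cannot be told apart. The females differed in Xist, which was 254 CPM in WT p38+/+ 1 and listed at 0 in AD p38KO 1. Mid1 held its call with each library left out, and the other 2 lost theirs in 6 of 8 cases (adjusted p up to 0.132 and 0.119). In AD p38+/+ mice Mid1 was 56.8 ± 9.41 CPM and in WT p38KO mice 27.3 ± 14.8 CPM.

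Other falls were scattered over functions and levels. Unc79, a subunit of the NALCN sodium leak channel complex, was 9.20, 6.39, 4.63 and 9.32 CPM against 0.0752, 0.955, 1.55 and 0 CPM (-2.98 ± 0.50, adjusted p = 0.00683). Cd93, a C-type lectin-like receptor, was 4.06, 2.49, 1.90 and 1.99 CPM in WT p38+/+ mice and at or under 0.135 CPM in every AD p38KO mouse (-2.45 ± 0.33, adjusted p = 0.00122). Thbs2, a matrix protein, was 4.20, 2.92, 6.22 and 9.70 CPM against 0, 0, 2.33 and 0 CPM (-2.90 ± 0.54, adjusted p = 0.0124), with AD p38KO 3 the only one of its group above 0. Neo1, a receptor of netrins and repulsive guidance molecules, was 18.6, 17.8, 13.6 and 11.3 CPM against 5.11, 7.32, 4.97 and 2.84 CPM (-1.54 ± 0.25, adjusted p = 0.00533). Tmc7, of the transmembrane channel-like family, was 50.2, 45.3, 49.9 and 34.9 CPM against 21.3, 20.6, 21.7 and 13.1 CPM (-1.22 ± 0.19, adjusted p = 0.00264), and Rbmx, a splicing regulator on the X chromosome, was 33.8, 56.5, 51.5 and 43.5 CPM against 27.7, 23.95, 17.6 and 19.3 CPM (-1.04 ± 0.18, adjusted p = 0.00804). Of these 6, Thbs2 alone lost its call in the leave-out fits, at 0.0514 without AD p38KO 1. Cd93 was under 1 CPM in every AD p38KO library and passed the filter through WT p38+/+ alone. The filter was not applied again in those fits, so they add no support for Cd93. The Thbs2 difference was -3.53 without AD p38KO 3, and without AD p38KO 1 and 4 it was -2.28 and that of Unc79 -2.14.

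Among the weaker falls were Btg2, an antiproliferative immediate early gene (-0.54 ± 0.12, adjusted p = 0.0352), Senp8, the protease that matures NEDD8 (-0.87 ± 0.16, adjusted p = 0.0124), Fem1b, a substrate receptor of a ubiquitin ligase (-0.70 ± 0.15, adjusted p = 0.0328), and Tbl1xr1, of the NCoR corepressor (-0.55 ± 0.12, adjusted p = 0.0428). Each lost its call with at least 1 library left out. Jun, on the same immediate early list, was 839.9, 393, 413 and 317 CPM against 280.1, 223, 221 and 229 CPM and was not called (adjusted p = 0.129). That list, of immediate early and dissociation stress genes, did not fall as a whole. Of its 31 tested members 3 were called higher (Egr2, Ccl3 and Ccl4) and 1 lower (Btg2), and the median was -0.17. Over all genes 0.565% were called higher and 0.271% lower. WT p38+/+ 1, the library with the highest Hspa8, also had the highest Jun.

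The remaining 8 libraries of the series, AD p38+/+ and WT p38KO, share no mouse with those compared above. They differ in the transgene the same way, and in p38 and the Cre allele together the opposite way. A reversed sign can therefore go with p38 or with the Cre allele, and these cannot be told apart. In them 37 genes were called (0.287%) between AD p38+/+ and WT p38KO, and 806 lay apart without overlap (6.24%). Of the 73 genes called higher in AD p38KO, 71 (97.3%) were also higher in AD p38+/+ than in WT p38KO, 46 of them without overlap, against a same sign in 55.6% of all genes. Cst7 differed by 4.07, Igf1 by 4.72 and Axl by 2.21 there. Of the 35 genes called lower, 14 (40%) had the same sign, 1 without overlap, and 9 were higher in AD p38+/+ than in WT p38KO without overlap. The 9 were Cx3cr1, Gm33858, H2ac6, H4f16, H4c9, H4c14, Gm20628, Mid1 and G530011O06Rik, and Lgi4 was the 1 gene called higher that was lower there without overlap. The counts describe these libraries and were not tested.

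**Figure D5:**
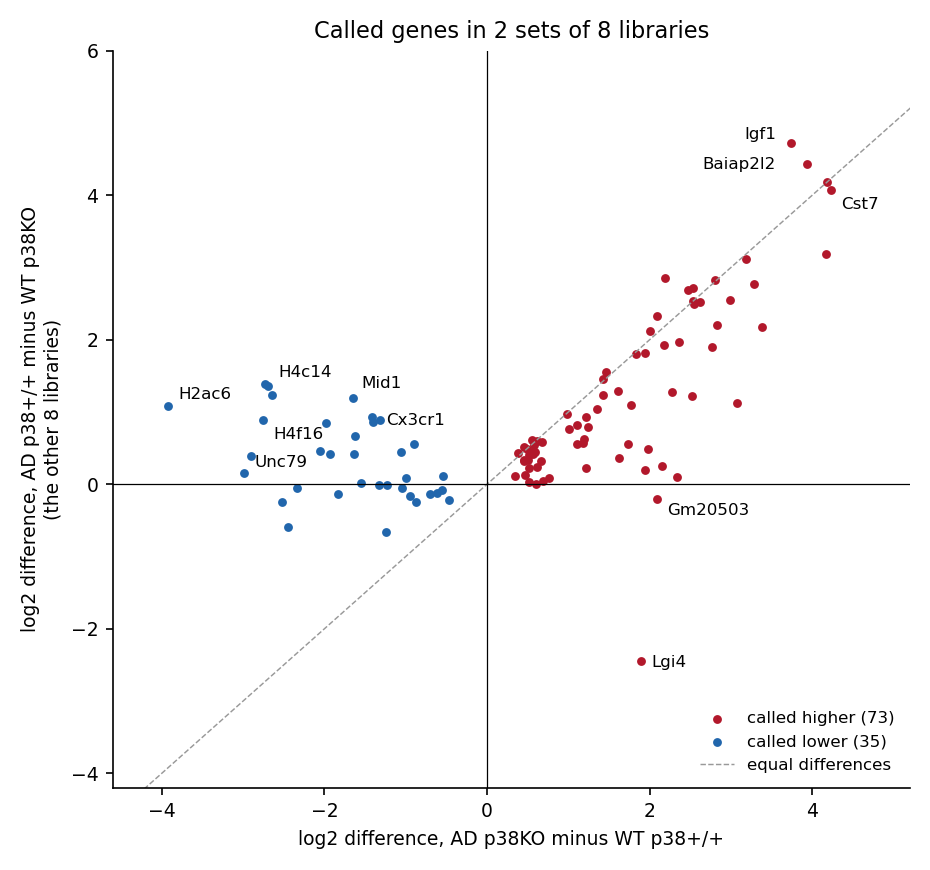
Log2 difference of the called genes between AD p38KO and WT p38+/+ (x axis) and between AD p38+/+ and WT p38KO mice, the other 8 libraries (y axis); red points were called higher and blue points lower in the first, and the dashed line marks equal differences. Of the 73 red points 71 lie above 0 and of the 35 blue points 14 lie below 0.

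Lgi4 crossed between these comparisons. Lgi4, a secreted protein of glial development, was 8.62, 4.99, 4.78 and 4.11 CPM in WT p38+/+ against 27.7, 18.3, 18.003 and 23.1 CPM in AD p38KO mice (1.89 ± 0.34, adjusted p = 0.0100). It was 20.8, 8.45, 24.9 and 18.9 CPM in WT p38KO mice, and 1.80, 4.96, 2.91 and 1.99 CPM in AD p38+/+ mice, so all AD p38+/+ mice lay under all WT p38KO mice (log2 difference -2.45). Fxyd5, a regulator of the sodium pump 26.62 kb away, was also called (1.62 ± 0.31, adjusted p = 0.0149) and had a difference of 0.36 in the other 8 libraries. H2ac6, H4f16, H4c9, H4c14, Mid1, G530011O06Rik and Cx3cr1, all called lower in AD p38KO, had differences of 1.09, 0.88, 1.38, 1.37, 1.19, 0.89 and 0.86 there.

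The comparison can be split into single steps, which share libraries with it and are therefore given side by side only. The step from p38+/+ to p38KO holds the kinase deletion and the Cre allele together, which cannot be told apart. The 73 genes called higher had a median of 1.19 for AD against WT in p38+/+ mice and 0.95 in p38KO mice. For p38KO against p38+/+ their median was 0.08 among AD and 0.17 among WT mice. The 35 genes called lower had medians of -0.40 and -0.89 for AD against WT and of -1.24 and -0.67 for p38KO against p38+/+. Taken singly the steps gave 48 calls (0.372%) for AD against WT in p38+/+ mice and 34 (0.263%) in p38KO mice. For p38KO against p38+/+ there were 5 calls (0.0387%) among AD and 1 (0.00775%) among WT mice. The interaction of both changes, fitted by limma, had 0 calls (0%) and 445 genes at an unadjusted p under 0.05, 11 of them among the called genes.

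Several lists had no called member. Of all genes 0.836% were called, so no call in lists this short is near that share. Of the 37 tested genes of the p38 pathway none was called and the median was -0.07. Dusp1, a phosphatase of p38, lay at 39.7 ± 25.5 and 11.7 ± 4.18 CPM (adjusted p = 0.149), and Mapkapk2, a kinase downstream of p38, at 139 ± 28.2 and 166 ± 13.4 CPM. The JAK-STAT list (23 tested, median -0.03), MHC class II (11, 0.14), cholesterol synthesis (23, 0.25) and the mitochondrial genome (15, 0.14) also had no call. Of 35 cytokine and inflammation genes 3 were called, Csf1, Tnfsf8 and Mif, and of 16 complement genes 1, Itgax. Of the 32 Alzheimer risk-locus genes tested 1 was called and the median was 0.07. Trem2, the lipid receptor of the DAM program, lay at 711 ± 49.9 and 971 ± 145 CPM without overlap, with an adjusted p of 0.0626.

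Of the 36 genes of homeostatic microglia tested, 1 was called higher and 2 lower, where 0.565% and 0.271% of all genes were. P2ry12, part of the sort gate, lay at 8683 ± 1607 and 7743 ± 466 CPM, Tmem119 at 6667 ± 524 and 6078 ± 17.9 CPM, and Csf1r at 18828 ± 1265 and 17419 ± 316 CPM (mean ± SD, n = 4 each). Most markers of other cells were under the filter and could not be called: 1 of 16 neuron, 2 of 16 endothelial, 3 of 22 lymphocyte and 0 of 8 red blood cell markers were tested, and of the markers of these and other cells that were tested none was called. Summed neuron markers ranged over 4.14 to 7.78 CPM in WT p38+/+ against 5.59 to 13.8 CPM in AD p38KO mice, astrocyte markers over 191 to 269 and 179 to 212 CPM, and oligodendrocyte markers over 184 to 251 and 226 to 274 CPM. Border-associated macrophage markers ranged over 406 to 862 and 358 to 611 CPM, and lymphocyte markers over 534 to 831 and 602 to 720.0 CPM. Endothelial markers ranged over 46.7 to 62.1 and 39.8 to 54.0 CPM, and monocyte and granulocyte markers over 12.6 to 22.4 and 8.47 to 31.2 CPM, highest in AD p38KO 1. Mog was at most 0.183 CPM in the 8 libraries. AD p38KO 1 was the highest of the 8 libraries for Ccl3, Clec7a and Cox6a2. It also had Ly6c2 at 9.85 CPM against at most 0.655 CPM in the other 7. Cldn5 was 2.11 CPM there against at most 0.257 CPM, and Cd3e 0.977 CPM against 0. Its endothelial sum, however, was 45.2 CPM, under every WT p38+/+ mouse. Its lymphocyte sum of 720.0 CPM was the highest of AD p38KO but under the highest WT p38+/+ mouse. The part of these markers in the Ccl3, Clec7a and Cox6a2 values was not tested.

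A few genes that the study discusses were read in this comparison as well. Rtp4 and Tmc7 are described above. Ifitm2, an antiviral membrane protein, was 2.03, 2.31, 1.44 and 1.61 CPM in WT p38+/+ against 5.64, 4.46, 3.57 and 5.14 CPM in AD p38KO mice and was not called (1.15 ± 0.31, adjusted p = 0.103), although its groups did not overlap. Csf2ra, a chain of the GM-CSF receptor, was 35.8, 55.6, 60.9 and 43.3 CPM against 71.6, 67.3, 62.0 and 56.6 CPM (adjusted p = 0.255). Klf7 lay at 47.4 ± 7.65 and 38.9 ± 10.5 CPM, Cdc37l1 at 50.1 ± 6.80 and 42.1 ± 3.99 CPM, and N4bp2 at 12.9 ± 7.52 and 9.99 ± 1.38 CPM, with adjusted p values of 0.429, 0.507 and 0.866. For these 3 the groups overlapped.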

How the data were processed

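RNA of about 10000 sorted microglia per mouse was sequenced in 16 libraries, 4 per group. The authors aligned reads with STAR to mm10, quantified them to Ensembl release 100 in Partek Flow 10.0.22.0828 and deposited CPM (reads scaled to a fixed library total) with 0.0001 added. The added value was subtracted. Of the low values in the 8 libraries, 76.8% to 82.1% were whole multiples of 1 read within 0.05 of a read, so counts were not recovered and no count model was used. Strand use in the counting is not given in the sources used here.

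Genes that reached 1 CPM in 4 or more of the 8 libraries were tested by limma 3.58.1 (R 4.3.3; trend on log2(CPM + 0.5), group means of all 16 libraries, 12 residual degrees of freedom, Benjamini-Hochberg over 12911 genes, adjusted p under 0.05). A fold change on this scale understates the change of low genes. For single values an exact two-sided permutation test was used. On simulated data of 12911 genes made for this comparison, 50 of 100 genes changed by 1 and 84 of 100 changed by 2 on the log2 scale were recovered, with 6 false calls of 140. Each gene had the same spread in all 16 simulated libraries, and none was made to deviate as AD p38KO 1 and 4 did. The shares recovered and falsely called in the real data may therefore differ. Figures and tables were made with Python 3.11.15.

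The comparison, its members and the gene lists were chosen with earlier results of these data known. Genes were named by rule: the 15 largest rises and 15 largest falls among calls without overlap, up to 4 called members and the 2 most abundant members of each list, up to 10 calls with the opposite sign in the other 8 libraries, the 3 most abundant calls in each direction, and genes the study discusses. Other called genes and list members that are described were chosen after their values were seen. Alternatives were another pseudocount, filter, scaling, set of libraries, covariate or block, array weights, and leaving out each library. Floors of 3 reads cover counting error only. A few genes are not reported here.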

Additional observations from a re-analysis of the deposited data

Results flagged for a closer look

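In 20 of 232 groups of 4 mice 1 mouse stood far from the other 3, by Dixon's test on the gap to the nearest of them over the group's range. Chance flags about 1 in 20 groups. In 5 of the 20 (Tmem163, Thbs2, Gm1673, Gm43417 and Frmpd4) the other 3 mice were listed at 0, so that any value above 0 would have stood apart.

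AD p38KO 1 was far above the rest of its group for Cox6a2 (40.8 CPM), Clec7a (101.5 CPM) and Ccl3 (128.7 CPM) and below it for Fxyd5 (16.5 CPM). AD p38KO 2 stood apart for Maged1 (100.7 CPM) and Frmpd4 (0.557 CPM). AD p38KO 3 was higher than its group for Thbs2 (2.33 CPM) and Herc3 (9.24 CPM) and lower for Wdr5b (3.34 CPM). AD p38KO 4 stood apart for Tmc7 (13.1 CPM) and Gm43417 (0.0677 CPM).

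WT p38+/+ 1 stood apart for Cst7 (7.61 CPM) and Gm1673 (0.290 CPM), WT p38+/+ 2 for Tmem163 (0.487 CPM) and Cd63 (111.1 CPM). WT p38+/+ 3 was the highest of its group for Ifi27l2a (5.62 CPM) and Ifitm3 (16.3 CPM). WT p38+/+ 4 was the lowest of its group for Crlf2 (10.99 CPM), Ifit1 (0.964 CPM) and Zfp974 (27.6 CPM).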

How the results depend on the processing

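The 73 genes called higher and 35 lower became, in all, 48 (38 and 10) with only the 8 libraries fitted, 66 (48 and 18) with array weights and 45 (30 and 15) without AD p38KO 1 and 4. With 1 library left out there were 58 to 157 calls, 38 to 95 higher and 18 to 79 lower. The share of calls that were higher, 67.6%, was 79.2% with only the 8 libraries and 49.5% and 49.7% without AD p38KO 2 and 3. The share of genes called lower with the same sign in the other 8 libraries, 40%, was 51.9% with no filter and 27.8% with array weights. The sign of N4bp2, which was not called, turned to 0.156 with array weights, 0.0555 without WT p38+/+ 1 and 0.103 without WT p38+/+ 2 on the log2 scale, and was -0.487 at the lowest with 1 library left out. The causes were not tested.

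Mouse numbers did not pair the libraries (correlation of deviations -0.024, 0.048, -0.012 and -0.071). With the number as a replicate block there were 96 calls (68 and 28) in all 16 libraries and 35 (27 and 8) in the 8. Of 2355 values recomputed for the called genes over 22 settings, 1723 stayed past the threshold, 632 did not and 0 reversed. At 4 mice a group, differences of the size of 1 on the log2 scale were often not detectable.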
